A study of Mus musculus with 6 samples.

Results

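The 10 genes described here mark T cells and killer lymphocytes: Cd3d, Cd3e and Cd3g (the CD3 chains of the T cell receptor complex), Cd4, Cd8a and Cd8b1 (the coreceptors), Lck (the kinase that starts receptor signaling), and Gzmb, Prf1 and Nkg7 (the cytotoxic granule genes). They were chosen by name, and all 10 were found among the 16729 genes of the deposited table. Bulk RNA-seq was run on intracranial tumors of the mouse glioblastoma line mG7080, a gliomasphere line from adult mice with engineered deletions, those of Trp53 and Nf1 among them. A dose of 500000 cells was injected into the brains of female C57BL/6 mice that were either wild type (WT) or lacked Esm1 (Esm1 KO), so the injected line was the same for both groups and only the recipients differed. The hosts were immunocompetent, and their age was given as 6 to 8 weeks in one place and 8 to 12 weeks in another. Each group had 3 libraries, called here WT 1 to WT 3 and KO 1 to KO 3. Each library was of a separately numbered tumor, and the tumors of a group came from different mice. All tumors came from 1 line, and the comparison asked how the transcripts of the whole tumor-bearing tissue differed between hosts with and without Esm1, the gene of the endothelial proteoglycan Endocan.

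T cells recognize antigen with a receptor that has no signaling tail of its own and depends on the CD3 chains to pass the signal on. CD8 or CD4 binds the MHC molecule that presents the antigen and brings Lck to the complex. CD8 is the coreceptor of cytotoxic T cells and CD4 that of helper and regulatory T cells, and Cd4 is also transcribed by some dendritic cells and macrophages. Activated cytotoxic T cells and natural killer cells kill with granules that hold perforin (Prf1), which opens the target membrane, and granzymes such as granzyme B (Gzmb), while Nkg7 is a granule membrane protein needed for their release. In glioma these cells are usually a small part of the tissue, beside many microglia and macrophages.

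The libraries held between 17632070 and 22241832 counted reads. Levels are given as counts or as CPM (reads per 1e6 reads of a library whose size was scaled with edgeR's TMM factor), where 1 read was worth 0.0445 to 0.057 CPM. A count of 0 allows up to 3 reads, or 0.134 to 0.171 CPM, and this limit and all counting intervals below cover counting error only, since reads without molecular identifiers are not independent molecules. Esm1, the deleted gene, had 25, 21 and 82 reads in WT 1, WT 2 and WT 3 and 1, 24 and 4 reads in KO 1, KO 2 and KO 3. The library labelled KO 2 was thus at the level of WT 1 and WT 2, against its label. Each of the 10 genes is therefore compared over all 6 libraries as labelled and over WT 1, WT 2, KO 1 and KO 3, the 4 libraries that the study used in its own supplementary gene table, and counts of calls are also given over all libraries but KO 2. For genes outside the 10 the set of libraries is named beside each value.

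In KO 1 and KO 3 the CD3, CD8, Lck and granule transcripts were far lower than in every WT library, and in the library labelled KO 2 they were at or above the WT level. Cd4 did not follow them: it was highest in KO 1 and lowest in KO 3. Over all 6 libraries none of the 10 genes passed the test, and neither did any other of the 16166 genes tested. The KO means were 0.381 to 0.807 times those in WT for the 9 genes other than Cd4. Over the 4 libraries all 9 were called lower, against 13.9% of all genes tested. The falls ran from 4.15-fold for Lck to 11.8-fold for Nkg7 and, on 3 reads, 26.6-fold for Prf1. In bulk tissue fewer T cells and less of these RNAs per cell cannot be told apart.

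The promoters of the genes that moved together are shown first, since these genes are transcribed from different chromosomes and from shared clusters. Cd3g, Cd3d and Cd3e lie within 40056 bases on chromosome 9 (GRCm38, GENCODE annotation): Cd3g at 44969572-44980431 on the minus strand, Cd3d at 44981786-44987339 on the plus strand and Cd3e at 44998740-45009627 on the minus strand. The starts of Cd3g and Cd3d are 1355 bases apart, head to head. Cd8b1 (71322788-71337494) and Cd8a (71373427-71379173) lie on the plus strand of chromosome 6, 35933 bases apart, and Cd4 lies on the minus strand of the same chromosome at 124864692-124888221. Lck is on chromosome 4 (129548344-129573641, minus strand), Nkg7 on chromosome 7 (43437073-43438249, plus strand), Prf1 on chromosome 10 (61297833-61304680, plus strand) and Gzmb on chromosome 14 (56258838-56262260, minus strand). Cd3e overlaps the antisense transcript Gm48719 and a further transcript, Gm48720, and Lck holds the microRNA gene Mir8119. The other 8 genes overlap no annotated gene.

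RefSeq promoter windows (GRCm38.p6) were matched for 8 of the 10 genes, with 9 windows in all because Lck has 2 starts. The 250 bases before the start are printed for Cd3g (chr9:44980432-44980681, minus strand), Cd3d (chr9:44981536-44981785, plus strand), the upstream start of Lck (chr4:129573642-129573891, minus strand) and Gzmb (chr14:56262335-56262584, minus strand), chosen to show the head-to-head CD3 pair, the kinase and a granule gene. Each is written 5′ to 3′ on the strand of its gene, and capitals mark matches on either strand to short core motifs of lymphocyte transcription factor families. The letters searched were AGGAAG for the ETS family, TGTGGT for the RUNX family, AGATAA for the family of Gata3, TCAAAG for the family of Tcf7 and Lef1 and CACCTG for the E-box.
Cd3g: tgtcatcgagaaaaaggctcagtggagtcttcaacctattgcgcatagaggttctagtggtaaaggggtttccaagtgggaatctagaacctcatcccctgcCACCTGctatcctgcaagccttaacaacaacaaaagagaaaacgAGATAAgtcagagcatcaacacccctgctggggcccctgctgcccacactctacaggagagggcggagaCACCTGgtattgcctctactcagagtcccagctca
Cd3d: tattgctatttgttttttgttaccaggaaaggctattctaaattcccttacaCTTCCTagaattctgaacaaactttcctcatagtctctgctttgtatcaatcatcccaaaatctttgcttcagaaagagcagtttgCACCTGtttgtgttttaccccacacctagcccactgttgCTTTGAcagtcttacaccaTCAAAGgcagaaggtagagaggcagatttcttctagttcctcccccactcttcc
Lck: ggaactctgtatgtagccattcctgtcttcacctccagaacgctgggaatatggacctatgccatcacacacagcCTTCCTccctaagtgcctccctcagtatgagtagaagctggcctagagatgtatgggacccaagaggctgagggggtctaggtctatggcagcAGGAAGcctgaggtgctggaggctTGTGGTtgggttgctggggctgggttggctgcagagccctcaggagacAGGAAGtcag
Gzmb: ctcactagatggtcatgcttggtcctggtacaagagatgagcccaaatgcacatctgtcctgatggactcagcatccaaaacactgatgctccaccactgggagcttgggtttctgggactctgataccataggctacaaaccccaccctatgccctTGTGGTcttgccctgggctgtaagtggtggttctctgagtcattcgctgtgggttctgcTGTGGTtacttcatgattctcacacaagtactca
In these 4 windows no match overlapped another. The ETS letters occurred in 6 of the 9 windows (both of Lck, Nkg7, Cd3d, Cd3e and Prf1), against 29.5% of all 32851 mouse promoter windows of the same length. The RUNX letters occurred in 4 of 9 (the upstream start of Lck, Nkg7, Prf1 and Gzmb), against 14.0% of all, and the E-box letters in 4 of 9 (the downstream start of Lck, Cd3g, Cd3d and Prf1), against 17.2%. The letters of the Gata3 family occurred only in the window of Cd3g (9.99% of all) and those of the Tcf7 and Lef1 family only in that of Cd3d (13.8% of all). The window of Cd8a, which moved with the others, held none of these letters. A match is a description of the sequence and not evidence that a factor binds there.

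All 3 CD3 chains were highest in KO 2 and lowest in KO 3. Cd3d had 36, 41 and 30 reads in WT 1, WT 2 and WT 3 and 7, 85 and 2 reads in KO 1, KO 2 and KO 3. Cd3e had 66, 45 and 48 reads in the WT libraries and 6, 106 and 4 in the KO libraries. Cd3g had 70, 75 and 85 reads in the WT libraries and 14, 153 and 6 in the KO libraries. KO 1 stood at 0.131 to 0.225 times the WT mean for the 3 chains, KO 3 at 0.0588 to 0.0822 times, and KO 2 at 1.79 to 2.14 times, so the KO libraries lay on both sides of the WT range. The WT mean was 1.77 ± 0.32 CPM for Cd3d, 2.61 ± 0.46 for Cd3e (SD, n = 3), and Cd3g had 3.33, 3.88 and 4.19 CPM in the WT libraries. The KO SD of 2.04, 2.57 and 3.62 CPM for Cd3d, Cd3e and Cd3g was larger than the difference between the groups for each. With the 6 libraries as labelled, the log2 fold change (KO over WT) was -0.31 ± 1.09 for Cd3d, -0.57 ± 1.09 for Cd3e and -0.54 ± 1.02 for Cd3g (SE), with edgeR adjusted p-values of 0.837, 0.698 and 0.701. Over the 4 libraries all of them fell: Cd3e by 9.93-fold (log2 fold change -3.30 ± 0.50, edgeR adjusted p = 0.0343), Cd3d by 7.61-fold (-2.93 ± 0.65, adjusted p = 0.0451) and Cd3g by 6.49-fold (-2.71 ± 0.54, adjusted p = 0.0402). Strand was not stated for the counting, so any reads from exons that Cd3e shares with its antisense transcript cannot be told apart. Shared exons were not checked.

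**Figure D1:**
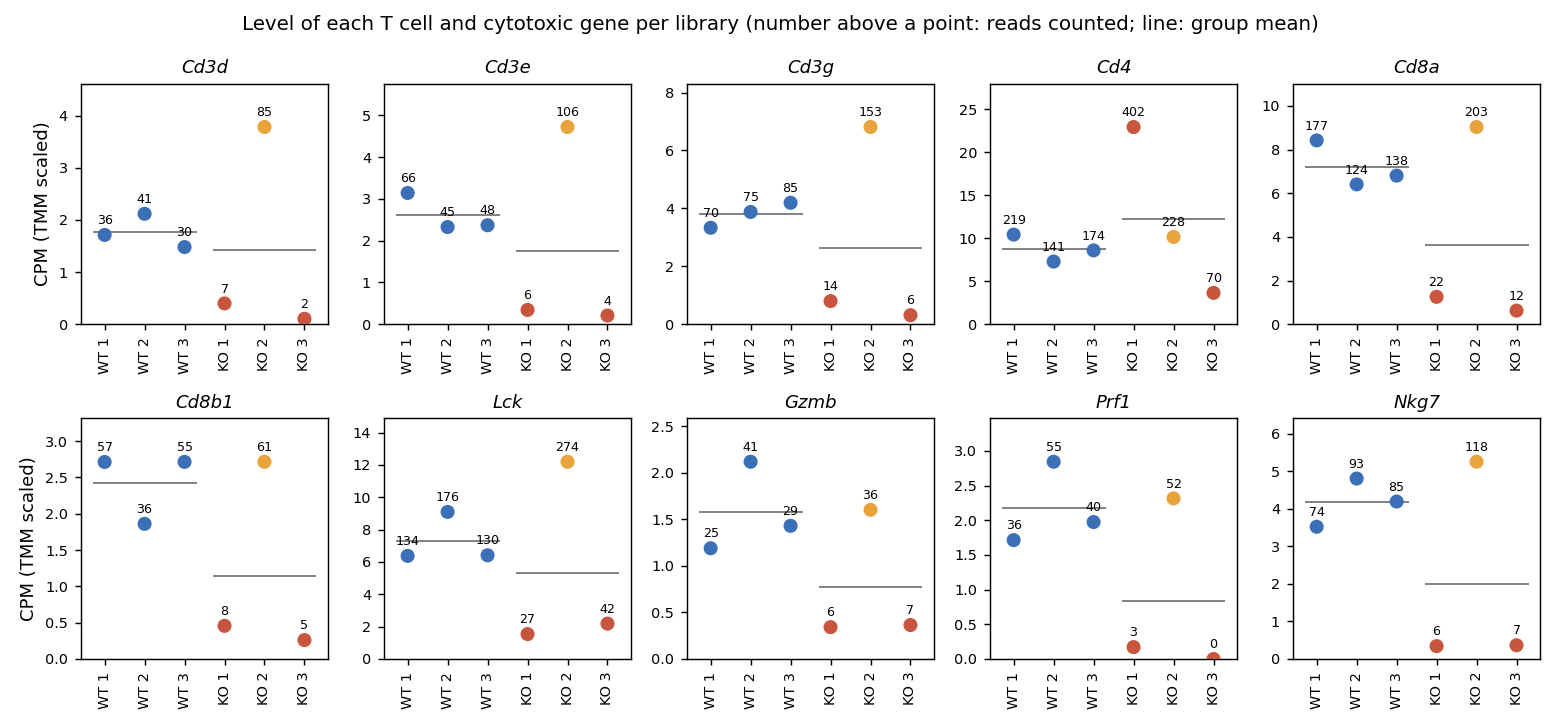
Level of each of the 10 genes in every library, in CPM after TMM scaling on a linear axis that starts at 0 (blue, WT; red, KO 1 and KO 3; orange, the library labelled KO 2). The number above a point is its read count and the grey line is the mean of the 3 libraries of a group. For 9 genes KO 1 and KO 3 lie below all WT points and KO 2 lies within or above them, while Cd4 has its highest point, 402 reads, in KO 1.

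Both CD8 chains followed the CD3 chains. Cd8a, the chain of every CD8 dimer, had 177, 124 and 138 reads in WT 1, WT 2 and WT 3 and 22, 203 and 12 reads in KO 1, KO 2 and KO 3. Cd8b1, the partner chain of conventional cytotoxic T cells, had 57, 36 and 55 reads in the WT libraries and 8, 61 and 5 in the KO libraries. KO 2 was above all WT libraries for both, for Cd8b1 by a margin within counting error (2.72 against 2.71 CPM), and KO 1 and KO 3 were below. As labelled, the log2 fold change was -0.997 ± 0.94 for Cd8a (edgeR adjusted p = 0.439) and -1.08 ± 0.84 for Cd8b1 (adjusted p = 0.358). Over the 4 libraries Cd8a fell by 7.89-fold (-2.99 ± 0.47, edgeR adjusted p = 0.0343) and Cd8b1 by 6.38-fold (-2.67 ± 0.51, adjusted p = 0.0376). The study also stained tumor sections for CD8 protein and reported no significant difference between the Esm1 WT and KO tumors. Protein staining of sections and RNA of these libraries are different measures.

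Cd4 was the exception among the 10. It had 219, 141 and 174 reads in WT 1, WT 2 and WT 3 and 402, 228 and 70 reads in KO 1, KO 2 and KO 3. In CPM this was 8.76 ± 1.57 in WT (SD, n = 3) against 22.9, 10.1 and 3.64 in the KO libraries, which thus lay above, within and below the WT range. The log2 fold change was 0.47 ± 0.62 over all 6 libraries (edgeR adjusted p = 0.581) and 0.57 ± 0.83 over the 4 (adjusted p = 0.603), and its direction rested on KO 1, since without that library it was -0.36 and -1.28. KO 1 and KO 3, which were alike in the other 9 genes, were the highest and the lowest library for Cd4.

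Lck had 134, 176 and 130 reads in WT 1, WT 2 and WT 3 and 27, 274 and 42 reads in KO 1, KO 2 and KO 3. KO 1 and KO 3 were again below all WT libraries and KO 2 above them, and KO 3 held more reads than KO 1, unlike for the CD3 and CD8 chains. The log2 fold change was -0.48 ± 0.79 over all 6 libraries (edgeR adjusted p = 0.658) and -2.06 ± 0.39 over the 4 (adjusted p = 0.0376), a 4.15-fold fall and the smallest of the 9.

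The granule genes held few reads in KO 1 and KO 3. Gzmb had 25, 41 and 29 reads in WT 1, WT 2 and WT 3 and 6, 36 and 7 in KO 1, KO 2 and KO 3. Prf1 had 36, 55 and 40 reads in the WT libraries and 3, 52 and 0 in the KO libraries, and the 0 in KO 3 allows up to 0.156 CPM. Nkg7 had 74, 93 and 85 reads in the WT libraries and 6, 118 and 7 in the KO libraries. KO 2 was within the WT range for Gzmb and Prf1 and above it for Nkg7. The log2 fold changes over all 6 libraries were -1.03 ± 0.67 for Gzmb, -1.38 ± 1.24 for Prf1 and -1.08 ± 1.04 for Nkg7 (edgeR adjusted p = 0.290, 0.422 and 0.451). Over the 4 libraries Nkg7 fell by 11.8-fold (-3.54 ± 0.44, edgeR adjusted p = 0.0343) and Gzmb by 4.68-fold (-2.21 ± 0.53, adjusted p = 0.0495), which sat at the threshold. Prf1 fell with an adjusted p of 0.0399 in edgeR, on 91 reads in WT 1 and WT 2 against 3 in KO 1 and KO 3, a ratio of 27.6 with a 95% counting interval from 9.15 to 136, and its fitted log2 fold change of -4.69 depends on the prior count.

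When all 6 libraries were fitted, edgeR's quasi-likelihood test called 0 of the 10 genes lower and 0 higher, and of all 16166 genes tested it called 0% lower and 0% higher at an adjusted p under 0.05. At an unadjusted p under 0.05 the 10 genes again gave 0 lower, against 11.9% of all genes. DESeq2, edgeR's exact test and limma-voom called 0 of the 10 as well. Of all genes they called 410, 81 and 0 lower and 708, 107 and 0 higher. Over the 4 libraries 9 of 10 were called lower, against 13.9% of the 16183 genes tested, and 0 higher, against 2.87%. All 9 were also past a 4-fold change, against 6.23% of all genes. With only KO 2 left out, 9 of 10 were called lower, against 28.3% of all genes. The median log2 fold change of the 10 genes was -0.78 over all 6 libraries, where that of all genes was -0.02, and -2.82 over the 4, where that of all genes was -0.03. All 10 passed the filter on low counts in both fits. KO 1 and KO 3 were both below every WT library for 9 of 10 genes, against 39.7% of all genes in the table. KO 2 was above every WT library for 7 of 10 (Cd3d, Cd3e, Cd3g, Cd8a, Cd8b1, Lck and Nkg7), against 24.5% of all genes. For 0 of the 10 did all 3 KO libraries lie below all WT libraries, against 2398 of all 16729 genes.

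**Figure D2:**
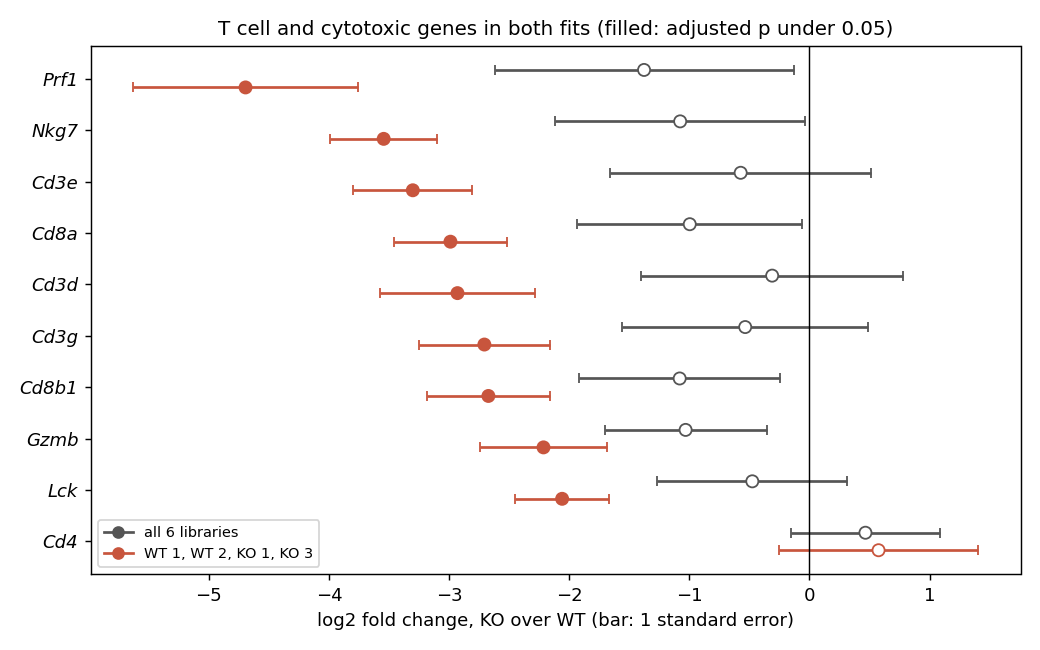
Log2 fold change (KO over WT) of the 10 genes with 1 standard error, over all 6 libraries (grey) and over WT 1, WT 2, KO 1 and KO 3 (red). Filled points have an edgeR adjusted p under 0.05: none of the 10 over all 6 libraries, and over the 4 libraries every gene but Cd4, which lies on the positive side in both.

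The calls over the 4 libraries rested on few libraries. Leaving out KO 3 left 0 of the 10 called lower (1.54% of all genes), leaving out KO 1 left 4 (5.62%), leaving out WT 2 left 5 (12.5%) and leaving out WT 1 left 9 (27.5%), so the calls over all genes moved with the same libraries, while all 9 kept a log2 fold change below 0 each time. Gzmb lost its call under 8 of the 13 alternatives tried on these libraries, more than any other of the 9.

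Within a library, the CD8 chains kept nearly the same proportion to each other, and the shares against the CD3 chains varied more. Cd8a made up 50.7, 43.5 and 45.8% of the reads of Cd8a and the CD3 chains together in WT 1, WT 2 and WT 3, and 44.9, 37.1 and 50% in KO 1, KO 2 and KO 3. The granule genes made up 44.0, 54 and 48.6% of the reads of these and the CD3 chains in the WT libraries and 35.7, 37.5 and 53.8% in the KO libraries. Cd8a made up 70.6 to 77.5% of the reads of both CD8 chains in all 6 libraries. So where the CD3 reads fell to 12 in KO 3, the CD8 and granule reads stood in the proportion they had in WT, within wide counting intervals (29.1 to 70.9% for Cd8a and 33.4 to 73.4% for the granule genes, exact Clopper-Pearson, 95%). Of the 14 granule reads in KO 3, 0 were of Prf1. In KO 2 the shares of Cd8a and of the granule genes against the CD3 chains were below all WT values. The interval of the granule share in KO 2 (33.4 to 41.6%) lay below those of WT 2 and WT 3. In KO 1 the granule share was also below all WT values, with a wide interval (21.6 to 52.0%).

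The proportions to Cd4 and, in KO 3, to Lck changed more. Cd8a made up 44.7, 46.8 and 44.2% of the reads of Cd8a and Cd4 in the WT libraries and 47.1% in KO 2, but 5.19% in KO 1 (95% interval 3.28 to 7.75%) and 14.6% in KO 3 (7.80 to 24.2%). Lck made up 43.8, 52.2 and 44.4% of the reads of Lck and the CD3 chains in the WT libraries, 50% in KO 1 and 44.3% in KO 2, but 77.8% in KO 3 (64.4 to 88.0%). The interval of KO 3 lay above those of all WT libraries. Across the 6 libraries, Pearson's r between the log2 CPM of any pair of the 9 genes other than Cd4 was 0.894 to 0.993 (36 pairs, median 0.964), while the 9 pairs with Cd4 gave -0.14 to 0.26. These values describe 6 libraries that share the low KO 1 and KO 3, and carry no test.

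**Figure D3:**
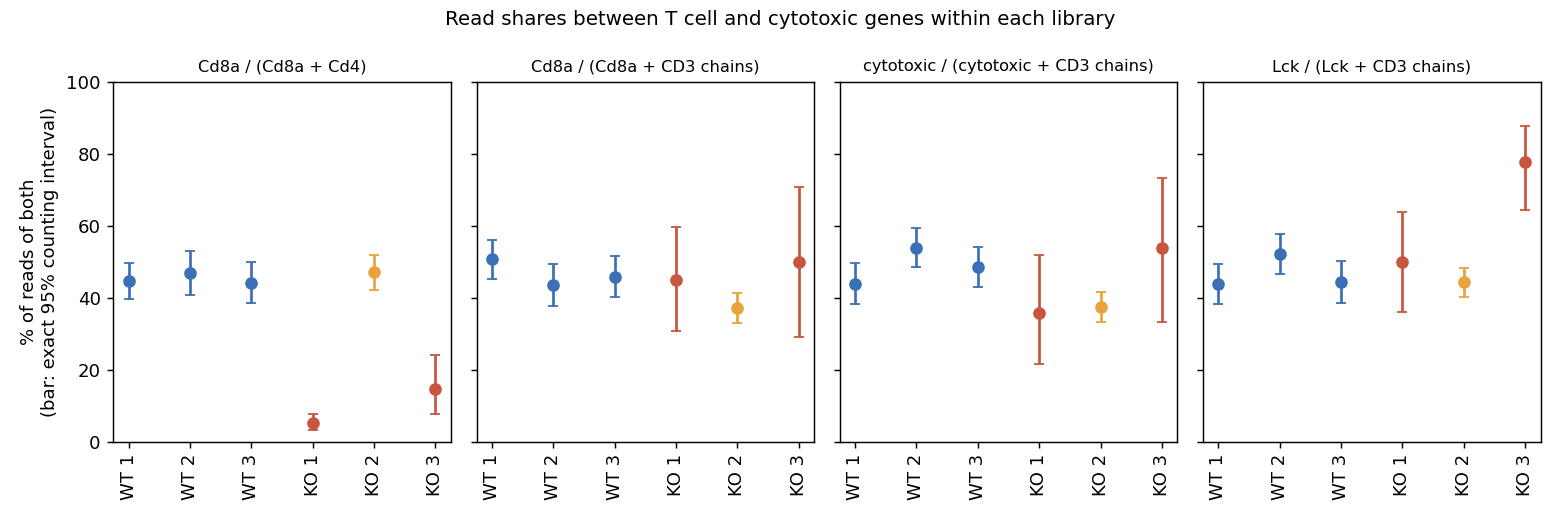
Share of reads between groups of the genes in each library (%, with exact 95% counting intervals), with WT in blue, KO 1 and KO 3 in red and the library labelled KO 2 in orange. From left to right the panels give Cd8a over Cd8a and Cd4, Cd8a over Cd8a and the CD3 chains, the granule genes over these and the CD3 chains, and Lck over Lck and the CD3 chains. KO 1 (5.19%) and KO 3 (14.6%) stand below the WT libraries in the first panel, and KO 3 (77.8%) above them in the last.

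Levels between genes can be compared only per transcript length, for which the FPKM values that the authors deposited were used. In WT the order of the mean levels was Nkg7 (5.48 ± 1.02 FPKM), Cd3g (3.96 ± 0.55), Lck (3.59 ± 0.88), Cd4 (3.00 ± 0.44), Cd8a (2.44 ± 0.28), Cd3e (1.93 ± 0.27), Cd8b1 (1.82 ± 0.33), Cd3d (1.42 ± 0.29), Gzmb (1.20 ± 0.40) and Prf1 (1.13 ± 0.34; SD, n = 3). Neighbours in this order had overlapping ranges over the WT libraries, except Nkg7 with Cd3g and, by 2.25 against 2.24 FPKM at the nearest libraries, Cd8a with Cd3e. In KO 1 Cd4 was at 6.75 FPKM, and all other genes were at or under 0.711 FPKM.

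The rest of the T cell receptor pathway moved like the CD3 chains in part. Of 24 listed genes of receptor signaling in the table, 20 were tested over the 4 libraries, with a median log2 fold change of -1.80. Of these, 12 were called lower, against 13.9% of all genes, and 0 higher, against 2.87%. Without KO 2 alone, 15 of 22 were called lower and 0 higher, against 28.3% and 24.5% of all genes. Ptprc, which encodes the leukocyte marker CD45, had 904, 1445 and 1159 reads in WT and 201, 1412 and 156 in KO, and fell by 6.01-fold over the 4 libraries (log2 fold change -2.60 ± 0.36, edgeR adjusted p = 0.0343). Cd6, a costimulatory receptor of T cells, went against the CD3 chains, with 70, 51 and 73 reads in WT and 86, 125 and 94 in KO. Its level was higher in all 3 KO libraries (4.89 to 5.56 CPM) than in any WT library (2.64 to 3.60 CPM), with a log2 fold change of 0.67 ± 0.23 over all 6 libraries (edgeR adjusted p = 0.184) and 0.70 ± 0.33 over the 4 (adjusted p = 0.152), neither of which passed. Skap1, an adaptor of T cell adhesion, had 36, 27 and 36 reads in WT and 23, 57 and 41 in KO, and was not called over all 6 libraries (log2 fold change 0.28 ± 0.33, edgeR adjusted p = 0.538) or over the 4 (0.14 ± 0.43, adjusted p = 0.811).

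Transcription factors of lymphocytes gave calls in both directions. Of 14 listed, all tested, 3 were called lower over the 4 libraries (Runx3, Gata3 and Ikzf3) and 2 higher (Bcl11b and Satb1), with a median of -0.39, where 13.9% of all genes were called lower and 2.87% higher. Without KO 2 alone, 6 were called lower and 3 higher, against 28.3% and 24.5% of all genes. The list summed to 292, 228 and 254 CPM in WT and to 492, 299 and 440 CPM in KO 1, KO 2 and KO 3, so its sum went against the CD3 chains in KO 1 and KO 3. Runx3, which maintains the CD8 lineage, had 85, 166 and 175 reads in WT and 16, 155 and 5 in KO (log2 fold change over the 4 libraries -3.44 ± 0.73, edgeR adjusted p = 0.0428). Gata3, needed for helper T cells, had 21, 48 and 25 reads in WT and 3, 41 and 1 in KO (-3.92 ± 0.83, adjusted p = 0.0427). Bcl11b had 66.2, 35.6 and 43.9 CPM in WT and 196, 61.1 and 136 CPM in KO (1.70 ± 0.37, adjusted p = 0.0445), and Satb1 had 66.0, 41.4 and 52.5 CPM in WT and 119, 67.4 and 125 CPM in KO (1.18 ± 0.26, adjusted p = 0.0462). Both are factors of T cell development that cortical neurons also transcribe. Both were higher in KO 1 and KO 3 than in every WT library, as the neuronal list was. Satb1 was also above every WT library in KO 2, where the neuronal list was within the WT range. Which cells these reads came from was not tested. Foxp3, the factor of regulatory T cells, is named here after its values were seen. It had 338, 343 and 401 reads in WT and 286, 405 and 304 in KO, and its log2 fold change over the 4 libraries was -0.08 ± 0.21 (edgeR adjusted p = 0.769). With libraries scaled to the microglia and macrophage list it became 0.87, where the median of all genes became 0.92, so it moved with the typical gene. Foxp3 overlaps Ppp1r3f, Ccdc22 and 2 further annotated transcripts on chromosome X (GRCm38, 7573644-7595245, plus strand). Shared exons were not checked, and any reads from them could not be told apart, since the counting strand is not stated.

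Further effectors of cytotoxic and natural killer cells followed the granule genes in part. Of the 17 in the table, 12 were below all WT libraries in both KO 1 and KO 3, against 39.7% of all genes. Gzmk, Gzmm, Serpinb9, Cd226 and Cd160, the last 3 named after their values were seen, were not. Of 16 tested over the 4 libraries, 8 were called lower and 0 higher, against 13.9% and 2.87% of all genes. A log2 fold change above 0 was found for 4, and the median was -3.20. Without KO 2 alone, 12 of 17 were called lower and 2 higher, against 28.3% and 24.5% of all genes. Klrk1, which encodes the activating receptor NKG2D, had 64, 97 and 61 reads in WT and 4, 88 and 4 in KO (log2 fold change over the 4 libraries -4.18 ± 0.53, edgeR adjusted p = 0.0343), and Cd244, a receptor of natural killer and cytotoxic T cells, had 27, 67 and 82 in WT and 4, 53 and 2 in KO (-3.81 ± 0.79, adjusted p = 0.0416). Klre1, named after its values were seen, was at 0 in both KO 1 and KO 3, which makes it at least 14.6-fold lower there than in WT 1 and WT 2 (3 reads over both libraries taken as the limit). Gzmm, which encodes granzyme M, went the other way, with 26, 13 and 13 reads in WT and 41, 36 and 34 in KO (log2 fold change over all 6 libraries 1.14 ± 0.38, adjusted p = 0.184). Gzmk, which encodes granzyme K, had 10, 9 and 5 reads in WT and 21, 34 and 22 in KO (1.67 ± 0.38, adjusted p = 0.184). Both were higher in all 3 KO libraries than in any WT library, the one labelled KO 2 included, and neither passed over the 4 libraries (edgeR adjusted p = 0.132 for Gzmm and 0.0775 for Gzmk). With KO 2 alone left out both passed (adjusted p = 0.0440 and 0.0249), in a fit that called 24.5% of all genes higher. Esm1 (chromosome 13, GRCm38, 113209659-113218098, plus strand) lies inside the annotated span of Gzmk on the opposite strand. The deleted gene thus lies within the Gzmk locus. The overlap is of whole annotated spans, and shared exons were not checked. Any reads from shared exons could not be told apart, since the counting strand is not stated.

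Among 22 cytokine and homing receptors of lymphocytes, 11 were called lower and 0 higher over the 4 libraries, with a median of -2.17. Of all genes 13.9% were called lower and 2.87% higher there. Without KO 2 alone 17 were called lower and 1 higher, against 28.3% and 24.5% of all genes. Ccr7, the receptor that guides T cells and dendritic cells to lymph nodes, had 75, 90 and 82 reads in WT and 7, 87 and 3 in KO (log2 fold change over the 4 libraries -3.88 ± 0.56, edgeR adjusted p = 0.0343). S1pr1, a receptor for egress from lymph nodes that brain cells also carry, had 2249, 1310 and 1446 reads in WT and 3530, 2812 and 3209 in KO and was not called (1.07 ± 0.29 over the 4 libraries, edgeR adjusted p = 0.0594). Il12rb2, an interleukin-12 receptor chain, had 121, 101 and 108 reads in WT and 109, 152 and 169 in KO (0.44 ± 0.32, adjusted p = 0.319). When all 6 libraries were fitted, edgeR called 0 genes of these 4 lymphocyte lists lower or higher. Without adjustment, 7 of the 74 tested passed in the higher direction and 0 in the lower, against 15.2% and 11.9% of all genes. DESeq2 called 2 of them higher and 0 lower, against 708 and 410 of all 16166 genes. The exact test and limma-voom called 0 of them in either direction. Of all genes the exact test called 107 higher and 81 lower, and limma-voom 0.

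Markers of other cells moved in the same libraries. The B cell list summed to 13.3 to 19.3 CPM in WT and to 4.8, 25.1 and 2.3 CPM in KO 1, KO 2 and KO 3, and the dendritic cell list to 187 to 320 CPM in WT and to 57.0, 212 and 52.9 CPM in KO. The microglia and macrophage list summed to 1519 to 1592 CPM in WT and to 871, 2031 and 757 CPM in KO. Of these lists 4 of 8, 3 of 10 and 8 of 15 tested genes were called lower over the 4 libraries, against 13.9% of all genes. In each list 0 were called higher, against 2.87%. The study also stained sections for microglia and macrophage proteins, IBA1 and CD68 among them, and reported no significant difference between WT and KO tumors. That is a measure of protein and not of these RNAs. The dendritic cell gene Xcr1 had 0 reads in KO 1 and KO 3. The neuronal list summed to 1691 to 5296 CPM in WT and to 12320, 4518 and 14691 CPM in KO, and the oligodendrocyte list to 1357 to 3484 CPM in WT and to 7743, 3325 and 3997 CPM in KO, so that KO 1 and KO 3 were above the WT range and KO 2 within it. From total counts, KO 3 was within the WT range for the oligodendrocyte list (3452 CPM, against 3575 in WT 1). For the neuronal and oligodendrocyte genes edgeR's quasi-likelihood test and limma-voom over the 4 libraries called 0 of 10 and 0 of 8, with 8 and 0 higher at an unadjusted p under 0.05, while DESeq2 called 9 and 2 higher and the exact test 9 and 4. Of all 16183 genes, DESeq2 and the exact test called 2642 and 2622 higher. At the unadjusted limit 3227 were higher by the quasi-likelihood test and 3533 by limma-voom. The glioma progenitor list summed to 969 to 1252 CPM in WT and to 368, 1188 and 259 CPM in KO, and the proliferation list to 1000 to 1784 CPM in WT and to 89.7, 1114 and 11.6 CPM in KO. Of these 2 lists 6 of 7 and 7 of 8 genes were called lower over the 4 libraries, against 13.9% of all genes. The endothelial list showed no such order (152 to 191 CPM in WT and 210, 177 and 153 CPM in KO, 0 of 8 called). Below all WT libraries in both KO 1 and KO 3 were 8 of 8 B cell, 6 of 10 dendritic and 11 of 15 microglia and macrophage genes, against 39.7% of all genes. Siglech and Cx3cr1 were instead above all WT libraries in all 3 KO libraries, and P2ry12 in KO 1 and KO 3. Bst2 held much of the dendritic sum (93.3, 195 and 150 CPM in WT, 7.99, 105 and 3.64 CPM in KO). KO 1 and KO 3 were thus low in the summed proliferation, progenitor, B cell, dendritic and microglia and macrophage lists, not in each gene. They were high in the neuronal and oligodendrocyte lists, KO 3 above the WT range in the latter with TMM scaling but not with total counts. The part of this makeup in the fall of the T cell genes was not tested.

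**Figure D4:**
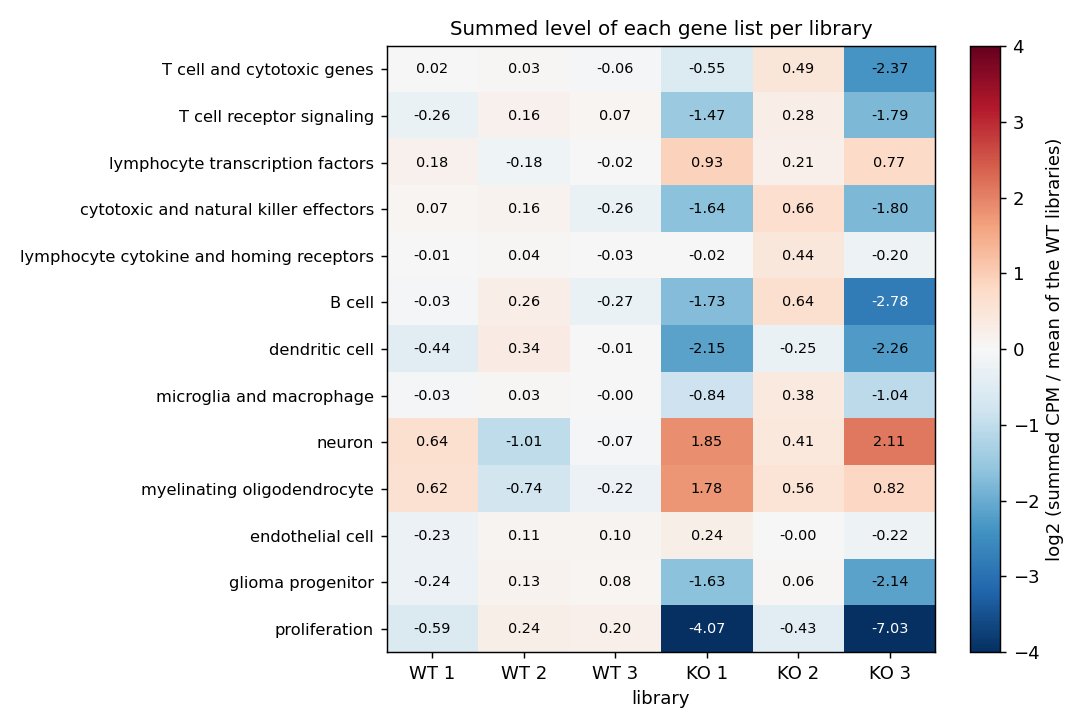
Summed level of each gene list in each library, as log2 of the summed CPM over the mean of the WT libraries, with the value printed in each cell (blue below WT, red above, color limited to 4 on either side). KO 1 and KO 3 are below all WT libraries in the lists of T cell receptor signaling, cytotoxic effectors, B cells, dendritic cells, microglia and macrophages, progenitors and proliferation, and above them in the lists of lymphocyte transcription factors, neurons and oligodendrocytes, while KO 2 stays within 0.66 of the WT mean in every list.

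Set against the microglia and macrophage list of the same library, the T cell genes were still low in KO 1 and KO 3. The summed CD3 chains stood at 5.39, 5.23 and 5.18 per 1000 CPM of that list in WT 1, WT 2 and WT 3, and at 1.77, 7.54 and 0.826 in KO 1, KO 2 and KO 3. The 9 genes without Cd4 stood at 21.1, 22.3 and 20.3 in WT and at 6.49, 23.8 and 5.85 in KO. KO 1 and KO 3 were below all WT libraries in both. Cd4 stood at 6.86, 4.58 and 5.53 in WT and at 26.3, 4.998 and 4.82 in KO, so that KO 3 was within the WT range on this scale and KO 1 above it. With libraries scaled to this list, 7 of the 10 genes were called lower over the 4 libraries and 5 of them also past 4-fold, against 7.4% of all genes called lower and 55.5% called higher. The median log2 fold change of the 10 was then -1.90 and that of all genes 0.92.

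The genes outside the 10 whose level was most like their mean log2 CPM over the 6 libraries were 6430503K07Rik, Slamf8, Ripk3, Fyb, Amotl2, Il1a, Ctss, Cspg4, Cd274 and Cd300lf, with Pearson's r from 0.998 to 0.9999 over 6 libraries. Ctss, the cathepsin S of antigen-presenting cells, had 389, 435 and 403 CPM in WT and 136, 523 and 98.3 CPM in KO. Cspg4, which encodes the progenitor and pericyte proteoglycan NG2, had 194, 241 and 212 CPM in WT and 46.1, 303 and 28.5 CPM in KO. Cd274, which encodes the checkpoint ligand PD-L1, had 47.7, 46.3 and 41.6 CPM in WT and 8.16, 59.2 and 3.90 CPM in KO. These 10 genes were picked out of all genes for this likeness over 6 libraries. That they were low in KO 1 and KO 3 and raised in KO 2 therefore follows from the choice and carries no test. Genes known from other cell types were among those picked.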

How the data were processed

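RNA of 6 frozen intracranial tumors, 3 from WT and 3 from Esm1 KO hosts, was extracted with TRIzol and sequenced by the authors. Library preparation (NEBNext per the labels, Ovation Ultralow per the methods) and genome (mm10 per the labels, hg38 per the methods) were stated differently in these sources, and the submitters' processing notes name CASAVA 1.8.2 and edgeR. The authors counted uniquely mapped reads per RefSeq gene with HTSeq and deposited raw counts, which are the main values here. They also deposited FPKM values, used for levels between genes only, and normalized counts, ratios, fold changes and p-values of their own, not used here. Each gene of the table had a count in at least 4 libraries.

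Counts were tested with edgeR 4.0.16 in R 4.3.3 (filterByExpr with a minimum count of 10 and a minimum total of 15, TMM scaling, quasi-likelihood test, Benjamini-Hochberg over all genes tested, calls at an adjusted p under 0.05), over all 6 libraries and over 4. DESeq2 1.42.0, edgeR's exact test, limma-voom (limma 3.58.1), other scalings and filters and each library left out were the alternatives. The fits were tested on simulated data with 200 changed genes. Summed CPM, read shares with exact binomial intervals and motif searches were made in Python 3.11.15.

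The 10 genes and the 12 gene lists were chosen with earlier results of these data known. Genes to name were the 10, Esm1, the 2 lowest and 2 highest fold changes over all 6 libraries in each of the 4 lymphocyte lists, the lowest and highest of each other list, and the 10 genes most alike by Pearson's r of log2 CPM (prior count 2, mean CPM of at least 1), of which some are not reported here. The other lists were B cell, dendritic cell, microglia and macrophage, neuron, myelinating oligodendrocyte, endothelial cell, glioma progenitor and proliferation. Positions come from GENCODE and promoters from RefSeq, both on GRCm38.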

Additional observations from a re-analysis of the deposited data

How the results depend on the processing

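Over all 6 libraries the 10 T cell genes gave 0 calls lower under every alternative except leaving out KO 2, so leaving out 1 library gave 0 to 9, and the 4 lymphocyte lists gave 0 to 50. Genes called lower numbered 0, with 410 by DESeq2 and 81 by the exact test (0 to 4608 on leaving out 1 library), and genes called higher 0, with 708 and 107 (0 to 3986). Over WT 1, WT 2, KO 1 and KO 3, leaving out 1 library gave 0 to 9 of the 10 called lower, 2 to 45 of the lymphocyte lists (34 with all 4 libraries), 252 to 4508 genes lower (2244 with all) and 0 to 4240 higher (464 with all); a group left with 1 library was assumed to vary like the other. Total count scaling called 3606 lower, scaling to the microglia and macrophage list 1198 lower and 8985 higher, DESeq2 2642 and the exact test 2622 higher, and a 4-fold limit left 1008 lower and 73 higher. The median of all genes moved to 0.59 over all 6 libraries and 0.92 over the 4 under scaling to the microglia and macrophage list, and to -0.17 and -0.27 under total counts. The summed CPM of the 10 genes in WT was 41.8, and 44.5 from total counts.

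Log2 fold changes that turned direction were all of genes not called in that comparison with the planned settings. Over all 6 libraries, leaving out 1 library gave -2.80 to 0.23 for Cd3d (above 0 without KO 1 or KO 3), -0.36 to 0.90 for Cd4 (below 0 without KO 1) and -1.91 to 0.72 for the B cell gene Fcrla (below 0 without KO 2), and Fcrla was -1.32 by limma-voom and -0.59 with the replicate block. Scaling to the microglia and macrophage list turned Foxp3 to 0.49 and the endothelial gene Kdr to 0.013. Over the 4 libraries it turned Foxp3 to 0.87 and Kdr to 0.41, and total counts turned Skap1 to -0.11. Leaving out 1 of these libraries gave -1.28 to 1.37 for Cd4 (below 0 without KO 1), -0.24 to 0.46 for Skap1 (below 0 without KO 3), -0.073 to 0.70 for the oligodendrocyte gene Cnp (below 0 without KO 1) and -0.18 to 1.07 for the progenitor gene Sox10 (below 0 without WT 2 or KO 1). The cause was not tested.

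Same-numbered libraries correlated by 0.53, 0.58 and -0.19 in their deviations from the group means, so the replicate numbers were not taken to pair the samples. With the replicate number as a block, 0 of the 10 genes and 0 of all genes were called lower over all 6 libraries, with a median of -1.60 for the 10. With 3 libraries a group and 12 or fewer CD3 reads in KO 3, a low level there is known only within the counting limits given above.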
